A study of Mus musculus with 60 samples.

Results

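Malat1 and 8 other genes known as long noncoding RNAs were followed in the hippocampus of mice that carried melanoma cells. These 9 genes, Malat1, Neat1, Meg3, Rian, Mirg, Miat, Snhg11, Kcnq1ot1 and Peg13, were taken by name from a table of 47643 gene symbols, and were chosen by their measured log2(TPM + 0.5) levels over the 12 groups of the study. Differences of these genes between groups are therefore given as a description with no test. Of the 9, 7 were measured, and Kcnq1ot1 and Peg13 were listed at 0 in all 60 libraries.

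The study comprised 60 RNA-seq libraries of hippocampus from female mice of 2 months. One arm, CAC, carried a melanoma that brings on cachexia, the wasting syndrome of cancer, another, NCAC, a melanoma that does not, and the control arm, Con, was mock injected. Tissue was taken 2, 4, 6 and 8 wk later. Each time point had 5 libraries an arm, except CAC with 4 at 2 wk and 7 at 8 wk and NCAC with 4 at 6 wk. They are labelled biological replicates, with no label tying each library to its own mouse, so that the spread between them may be in part technical. The strain is C57BL6/J in the sample labels and NCI Ath/nude, an immunodeficient line, in the series' design text. The melanoma lines are not named, and no measure of weight loss was used here. The deposited values allowed whole reads to be recovered, between 32388197 and 42047145 a library. All 10 listed hippocampus markers reached 1 TPM in every library, with a summed level of 678 to 1169 TPM. In 10 libraries the striatum or the erythrocyte marker list lay over 1 log2 unit above the median of all libraries: 3 were of CAC at 4 wk, 2 of Con at 8 wk, and 1 each of CAC at 2 wk, CAC at 8 wk, Con at 4 wk, NCAC at 4 wk and NCAC at 6 wk.

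Long noncoding RNAs are transcripts that act without being translated, many of them inside the nucleus. Malat1 is held in nuclear speckles, the stores of splicing factors, and Neat1 is the scaffold of paraspeckles, bodies that hold RNA-binding proteins and certain RNAs. Meg3, Rian and Mirg are read from the maternal copy of the Dlk1-Dio3 imprinted domain, and Rian and Mirg are hosts of small nucleolar RNAs and of microRNAs. Miat forms a nuclear domain of its own in neurons, and Kcnq1ot1 and Peg13 are imprinted antisense or intronic transcripts. Snhg11 is a small nucleolar RNA host gene, though the gene model used here types it as protein coding.

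The 7 measured genes covered a wide span of abundance. TPM is a transcript level scaled to gene length and library total, so genes can be set side by side on it. Meg3 averaged 1279 TPM over the 60 libraries and ranked 41 among all symbols. Snhg11 averaged 1022 TPM at rank 64. Miat averaged 510 TPM and Malat1 402 TPM, at ranks 177 and 259. Rian averaged 282 TPM at rank 431 and Neat1 157 TPM at rank 970. Mirg averaged 10.8 TPM at rank 9769, so that the name of an abundant RNA does not describe it here. The 7 genes together held between 0.312% and 0.467% of the summed TPM of a library.

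The gene models differ from the lengths that the deposited values imply, which bears on these levels. On the mouse build GRCm38, Malat1 lies at chr19:5795690-5802672 on the minus strand as a model of 6983 exonic bases, while the values imply a counted length of 1834 bases. Neat1 lies beside it at chr19:5824708-5845478, also on the minus strand, with 20771 exonic bases and a counted length of 3004 bases. This length equals the exon sum of the annotated 2-exon transcript at chr19:5842307-5845476. A 1-exon transcript of 20771 bases spans the same stretch, so the Neat1 level here cannot be read as that of the longer transcript alone. Meg3 lies at chr12:109541001-109571726 on the plus strand with 18089 bases in both. Rian, at chr12:109603940-109661716, has 18234 exonic and 11365 counted bases, and Mirg, at chr12:109729764-109749460, has 7292 and 6484. Miat, at chr5:112213228-112229395 on the minus strand, and Snhg11, at chr2:158375638-158386145 on the plus strand, have 9293 and 8521 bases, equal to the counted lengths. Malat1 was thus read from 3882 to 12055 reads a library and Neat1 from 2895 to 10303, against 194072 to 304137 for Meg3 and 415 to 1108 for Mirg. The use of strand in counting is not given in the sources used here, so reads of the unnamed gene models that overlap Malat1 on the other strand, such as Gm37376, cannot be told apart from its own.

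Kcnq1ot1 lies at chr7:143203458-143296549 inside Kcnq1 and against its strand, and Peg13 at chr15:72805600-72810324 inside Trappc9. A listed 0 may be a failed estimate, since 2900097C17Rik, the mouse Norad RNA of most cells, was also listed at 0 in every library. No level of either gene can be given.

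Meg3 and Snhg11 varied together from library to library, and the sequences around their start sites are shown for that reason. Each runs from 250 bases before to 50 after the start on build GRCm38.p6 (RefSeq), with capitals for matches to any of 5 motifs on either strand: the cAMP response element TGACGTCA, the GC box GGGCGG, the CCAAT box, the TATA box TATAAA and the E-box CACGTG.
Meg3, chr12:109540746-109541045, plus strand: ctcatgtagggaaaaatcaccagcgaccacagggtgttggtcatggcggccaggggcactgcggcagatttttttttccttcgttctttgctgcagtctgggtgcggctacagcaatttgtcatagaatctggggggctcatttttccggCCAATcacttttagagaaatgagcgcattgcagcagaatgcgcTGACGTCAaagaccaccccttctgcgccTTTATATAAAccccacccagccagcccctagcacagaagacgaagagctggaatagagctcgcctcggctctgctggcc
Snhg11, chr2:158375463-158375762, plus strand: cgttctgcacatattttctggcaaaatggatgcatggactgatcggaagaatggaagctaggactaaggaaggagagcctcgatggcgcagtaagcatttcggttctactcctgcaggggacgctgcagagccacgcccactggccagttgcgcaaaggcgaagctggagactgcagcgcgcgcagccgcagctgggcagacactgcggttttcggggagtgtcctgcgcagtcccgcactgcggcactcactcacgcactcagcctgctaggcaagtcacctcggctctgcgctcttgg
RefSeq gives Meg3 2 starts, and the window printed is that of the first. It holds CCAAT at base 151, the cAMP response element at base 194 and overlapping TATA box matches at bases 222 and 226, the first of them on the other strand. Among 32851 promoter windows of the same length, 37.4% held a CCAAT match, 1.79% the cAMP response element and 13.6% the TATA box. The window of the second Meg3 start, chr12:109545148-109545447, holds 0 matches to the 5 motifs. No match to them lies in the Snhg11 window, where 35.7% of all windows held the GC box and 7.15% the E-box. RefSeq windows matched 7 of the 9 genes, and a match is a description of letters only.

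Malat1 varied more between groups than most genes, and its control level moved as well as its tumour level. At 2 wk the 5 Con libraries gave 459, 426, 545, 554 and 495 TPM, the 5 NCAC libraries 325, 227, 372, 377 and 352 TPM, and the 4 CAC libraries 418, 304, 266 and 309 TPM. All Con libraries were above all libraries of both tumour arms. At 4 wk the order was turned: Con gave 322, 329, 302, 272 and 312 TPM, NCAC 364, 370, 547, 349 and 424 TPM, and CAC 578, 546, 446, 485 and 359 TPM. All Con libraries were now the lowest of the 15. Between 2 and 4 wk the Con mean went from 496 ± 54.8 to 307 ± 22.1 TPM (SD, n = 5 each), while the CAC mean went from 324 ± 65.4 (SD, n = 4) to 483 ± 86.1 TPM (SD, n = 5).

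On the log2(TPM + 0.5) scale, Malat1 in CAC minus Con was -0.63 ± 0.16 (SE of the fit) at 2 wk and 0.63 ± 0.15 at 4 wk. NCAC minus Con was -0.60 ± 0.15 and 0.40 ± 0.15 at these times. The Con libraries are shared between the arms, so these are not separate observations. At 6 wk the CAC libraries spanned 225 to 506 TPM and the Con libraries 317 to 494 TPM, with a difference of -0.08 ± 0.15. At 8 wk Con gave 455 ± 68.6 TPM (SD, n = 5), NCAC 515 ± 67.6 TPM (SD, n = 5) and CAC 423 ± 70.2 TPM (SD, n = 7), and the 3 groups overlapped. CAC minus NCAC was -0.29 ± 0.14 there.

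Within NCAC, Malat1 was 0.65 ± 0.15 higher at 8 than at 2 wk and the groups did not overlap. This was so for 9.58% of all tested genes in that comparison. Within CAC Malat1 was 0.39 ± 0.15 higher over the same time, with overlapping libraries, and within Con it differed by -0.13 ± 0.15. Ordered by mean, the groups ran from Con at 4 wk (307 TPM) to NCAC at 8 wk (515 TPM), a ratio of 1.67, and each of the 11 steps between neighbours was smaller than the spread within groups. Groups accounted for 55.6% of the variance of Malat1, against a median of 33.3% over all genes. The share was 46.5% for Meg3, 46.2% for Neat1 and 37.6% for Rian. It lay below that median for Snhg11 (32.7%), Miat (31.0%) and Mirg (20.3%). The choice of the genes used these levels, so the shares are a description only. The spread of Malat1 within groups was also larger than that of 93.7% of genes with a mean of at least 100 TPM, and that of Neat1 larger than 95%.

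Library traits also differed between these groups. The slope of a library on gene length is its mean log2 deviation for each doubling of length. It averaged -0.02 in Con and 0.09 in CAC at 2 wk, and 0.06 in Con and 0.01 in CAC at 4 wk. Of these 2 groups, the one with the lower slope had the higher Malat1 at both times. This order did not extend to all groups: at 4 wk NCAC had the lowest mean slope and a mean Malat1 below that of CAC. Its part in these differences was not tested. At 4 wk, 3 of the 5 CAC libraries and 1 of the 5 Con libraries were rich in striatum or erythrocyte transcripts, and without the 10 such libraries the difference at 4 wk was 0.41. The 2 remaining CAC libraries, at 446 and 359 TPM, were still above every Con library.

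**Figure D1:**
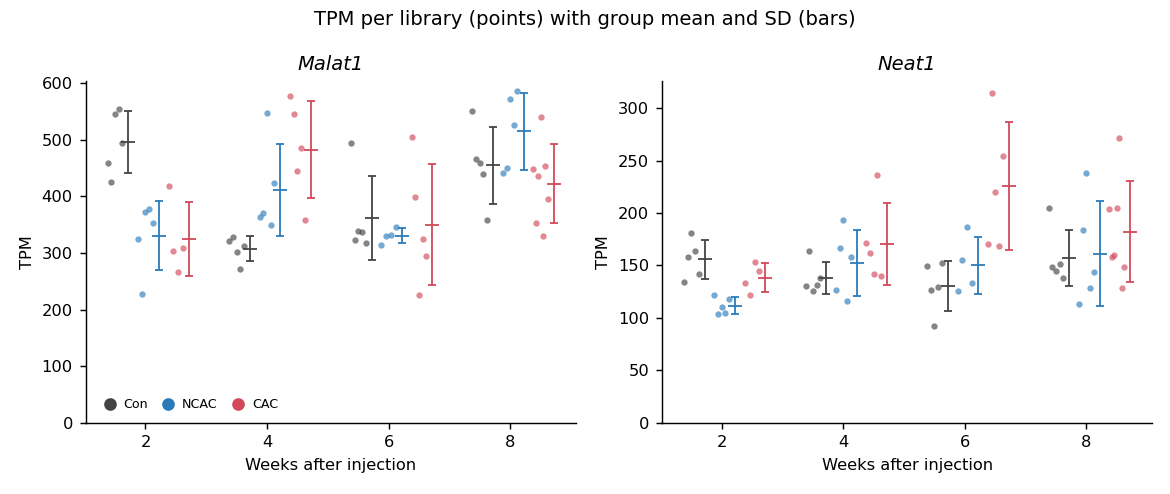
Levels of Malat1 (left) and Neat1 (right) in TPM against weeks after injection, with 1 point per library and bars for the group mean and SD (Con grey, NCAC blue, CAC red). Con lies highest for Malat1 at 2 wk (426 to 554 TPM) and lowest at 4 wk (272 to 329 TPM), and CAC lies highest for Neat1 at 6 wk (169 to 315 TPM).

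Neat1 stood highest in CAC at 6 wk. There the 5 CAC libraries gave 171, 315, 220, 169 and 254 TPM, the 4 NCAC libraries 125, 155, 186 and 134 TPM, and the 5 Con libraries 150, 127, 92.4, 130 and 152 TPM. Every CAC library lay above every Con library, and the lowest CAC libraries fell below the highest NCAC library. CAC minus Con was 0.77 ± 0.17 and CAC minus NCAC 0.56 ± 0.18 on the log2 scale.

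At 2 wk the lowest Neat1 was that of NCAC, 104 to 122 TPM, below all 5 Con libraries at 134 to 181 TPM, with a difference of -0.47 ± 0.17. CAC lay between them at 138 ± 13.9 TPM (SD, n = 4). At 4 wk CAC minus Con was 0.28 ± 0.17, and at 8 wk 0.19 ± 0.16, with overlapping libraries at both times. At 8 wk Con gave 157 ± 26.8 TPM (SD, n = 5), NCAC 161 ± 50.1 TPM (SD, n = 5) and CAC 182 ± 48.4 TPM (SD, n = 7). From NCAC at 2 wk (112 TPM) to CAC at 6 wk (226 TPM) the group means spanned a ratio of 2.02, the widest of the 7 measured genes, and 10 of the 11 steps between neighbours were within the spread.

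Markers of the choroid plexus, the epithelium in the ventricles that secretes cerebrospinal fluid, moved with Neat1 between CAC and Con at 6 wk. All 8 listed markers had a higher mean in CAC, none passed the threshold of the fit, and their summed level ran from 375 to 8713 TPM in CAC and from 189 to 4341 TPM in Con. No marker was at 0 in any of these libraries. At 4 wk the list went the other way, with all 8 means lower in CAC (188 to 1662 TPM against 2557 to 5030 TPM in Con), while Neat1 was not lower there. The part of choroid tissue in the difference at 6 wk was not tested. In whole tissue, fewer cells of a type and less RNA per cell cannot be told apart.

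Meg3 was the most abundant of the 7, and its group means lay close together. Groups still accounted for 46.5% of its variance, against a median of 33.3% over all genes. The group means of Meg3 ran from 1145 ± 84.6 TPM in NCAC at 4 wk (SD, n = 5) to 1395 ± 126 TPM in CAC at 8 wk (SD, n = 7), a ratio of 1.22. At 4 wk the NCAC libraries gave 1235, 1050, 1126, 1083 and 1231 TPM and the CAC libraries 1365, 1187, 1346, 1703 and 1362 TPM. CAC was higher by 0.28 ± 0.07, with 1 CAC library inside the NCAC range. At 8 wk the 7 CAC libraries had a lowest, median and highest value of 1189, 1431 and 1559 TPM, and the 5 Con libraries gave 1164, 1319, 1305, 1229 and 1287 TPM. CAC minus Con was 0.14 ± 0.07.

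Rian, the next transcript of the same domain, was lowest in CAC at 6 wk. The 5 libraries gave 254, 245, 266, 249 and 246 TPM there, against 247, 298, 298, 312 and 297 TPM in Con. A single Con library fell among those of CAC, and the difference was -0.20 ± 0.07. At 8 wk Rian was at 261 ± 15.8 TPM in CAC (SD, n = 7) and 271 ± 17.3 TPM in Con (SD, n = 5), a difference of -0.05 ± 0.07. Mirg, the last of the 3, ranged from 9.76 ± 1.06 TPM in Con at 4 wk to 12.2 ± 1.15 TPM in Con at 8 wk (SD, n = 5 each). CAC minus Con was 0.18 ± 0.12 at 4 wk, -0.20 ± 0.12 at 6 wk and -0.12 ± 0.11 at 8 wk, with overlapping libraries each time.

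Miat and Snhg11, from other chromosomes, gave small differences as well. Miat had its lowest mean in CAC at 2 wk (469 ± 60.6 TPM, SD, n = 4) and its highest in CAC at 6 wk (556 ± 56.4 TPM, SD, n = 5). At 8 wk the CAC libraries had a lowest, median and highest value of 487, 554 and 620 TPM against 439, 521, 468, 477 and 496 TPM in Con, and CAC minus Con was 0.21 ± 0.08. For Snhg11 the same values at 8 wk were 925, 1122 and 1348 TPM in CAC, and 858, 1011, 1032, 917 and 988 TPM in Con, with a difference of 0.20 ± 0.09. The groups overlapped for both genes.

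Snhg11 was lower in NCAC than in Con at 6 wk by 0.23 ± 0.10, as was Meg3 by 0.16 ± 0.08, with overlapping libraries.

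**Figure D2:**
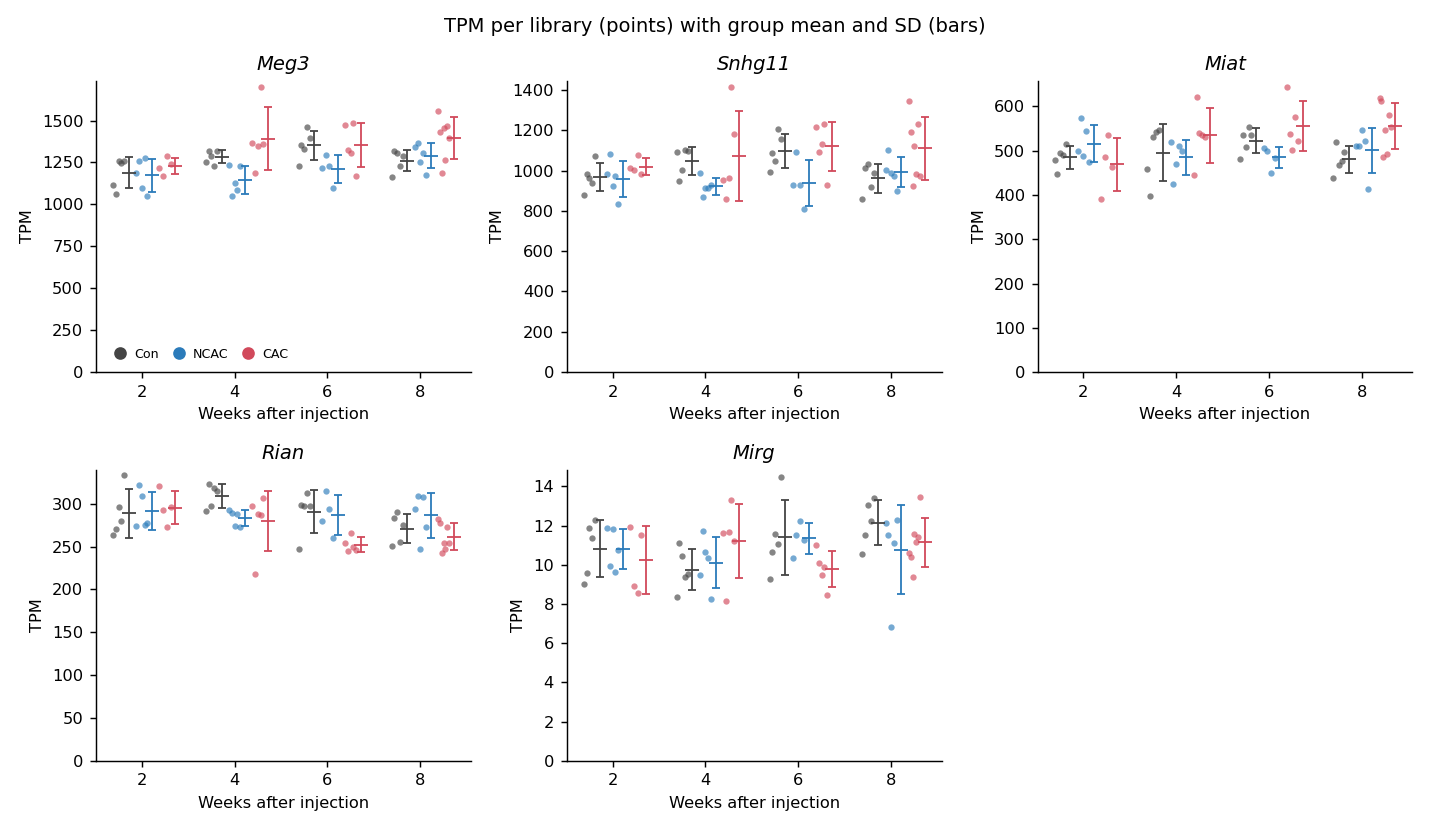
Levels of Meg3, Snhg11, Miat, Rian and Mirg in TPM against weeks after injection, with 1 point per library and bars for the group mean and SD (Con grey, NCAC blue, CAC red). The ratio of the highest to the lowest group mean lies between 1.19 and 1.25 for these 5 genes.

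The selection of the 7 measured genes used these levels, so counts of them are given beside the share of all 15608 tested genes and nothing is read from them. At 2 wk, 1 of 7 (Malat1) passed the limma threshold of adjusted p below 0.05, where 3.7% of all genes did, and its groups did not overlap, as for 7.11% of genes. This call was lost with the GC and length trend removed, without the rich libraries, with only the compared groups fitted, and in 6 of 9 fits with a library left out. At 4 wk it was again Malat1 alone, with 0.801% of genes past the threshold and 3.77% not overlapping, and the call was lost without a filter, without the rich libraries, with only the compared groups, and in 6 of 10 fits with a library left out. At 6 wk it was Neat1 alone, with 0.25% and 2.62%, lost with only the compared groups and in 5 of 10 fits with a library left out. At 8 wk limma called 0 of 7, where 14.5% of genes passed and 7.02% did not overlap. In limma 3 of 7 had an unadjusted p below 0.05, as had 4878 of all 15608 genes. Voom on recovered reads also called 0 of 7, and 1597 of all genes. Without CAC replicate 3, limma called 3 of 7 at 8 wk (Miat, Meg3 and Snhg11), where 3070 of all 15608 genes passed. It called Miat alone without CAC replicate 5 (2547 of all genes), without the rich libraries (2347) or with only the compared groups (2847). For CAC against NCAC at 8 wk limma called 0 of 7 against 1.83% of genes, and voom called 0 of 7. In limma 1 of 7 was below an unadjusted p of 0.05, as were 2416 of all 15608 genes. For Con at 8 against 2 wk limma called 0 of 7 against 9.67% of genes, and voom called 0 of 7. With no adjustment 0 of 7 passed in limma, beside 4324 of all 15608 genes. For CAC at 8 against 2 wk limma called 4 of 7 (Malat1, Meg3, Rian and Miat), beside 4831 of all 15608 genes. For NCAC over that time it called 1 of 7 (Malat1), beside 2189 of all 15608 genes. Neither of these was refitted under the other settings. In NCAC against Con at 2, 4, 6 and 8 wk, limma called 0 of 7, as it did 0 of all 15608 genes. Libraries of NCAC and Con did not overlap for 2 of 7 at 2 wk (Malat1 and Neat1, beside 1.55% of genes). At 4 wk this was so for 1 of 7 (Malat1, beside 1.92% of genes). The median log2 difference of the 7 was 0.14 for CAC minus Con at 8 wk, beside 0.05 over all tested genes, 0.11 beside 0.02 for CAC minus NCAC, and -0.01 beside -0.06 for Con at 8 minus 2 wk.

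**Figure D3:**
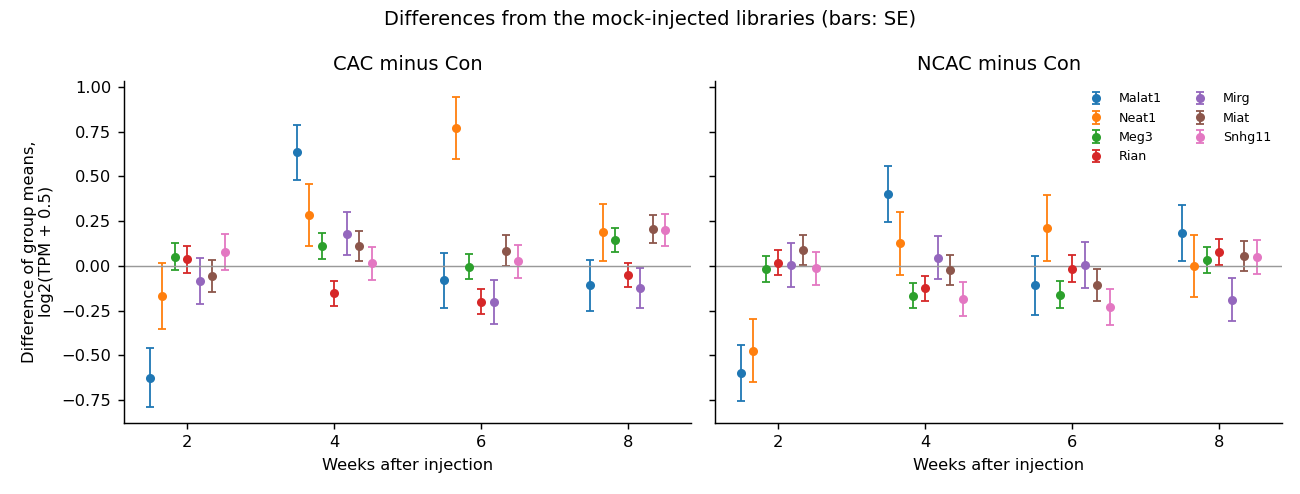
Difference of each measured gene from Con in CAC (left) and NCAC (right), as log2(TPM + 0.5), against weeks after injection, with bars for the SE of the fit. Malat1 in CAC lies at -0.63 at 2 wk and at 0.63 at 4 wk, and Neat1 at 0.77 at 6 wk, while the other 5 genes stay between -0.20 and 0.21 in CAC.

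Libraries of the same group still differ from each other, and these deviations are what is left once the group means that the rule used are removed. The members were, however, chosen with earlier results of these data known. Over all 60 libraries with the group means removed, Meg3 and Snhg11 varied together. Their deviations gave r = 0.82 (rho = 0.76, both with p = 1e-05, the smallest the permutations can give, adjusted p = 0.00021 over 21 pairs). The relation was 0.90 in CAC (21 libraries), 0.84 in NCAC (19) and 0.55 in Con (20), and 0.77 without the 2 libraries farthest out in Meg3. Among 14586 other genes with a mean of at least 1 TPM, Snhg11 was the one most like Meg3 and Meg3 the one most like Snhg11. Across these genes the median size of r with Meg3 was 0.145.

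Of the 21 pairs, 6 passed an adjusted p of 0.05 in a permutation test within groups, and all 6 were positive. Snhg11 with Rian gave r = 0.58 (rho = 0.54, permutation p = 5e-05 and 8e-05, adjusted p = 0.000525, 0.51 without the 2 farthest libraries). Rian with Mirg, neighbours in the imprinted domain, gave r = 0.57 (rho = 0.41, permutation p = 0.00022 and 0.00331, adjusted p = 0.00154, 0.47 without the 2 farthest). Meg3 with Rian gave r = 0.53 (rho = 0.48, permutation p = 0.0006 and 0.00051, adjusted p = 0.00315, 0.53 without them). Miat correlated with Snhg11 (r = 0.46, rho = 0.53, permutation p = 0.00105 and 9e-05, adjusted p = 0.00437, 0.42 without them) and with Meg3 (r = 0.44, rho = 0.52, permutation p = 0.00125 and 0.00013, adjusted p = 0.00437, 0.44 without them). Both pairs with Miat missed the threshold without the CAC libraries of 8 wk, at an adjusted p of 0.0602 each in the permutation test.

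Meg3 with Mirg, from the same domain, gave r = 0.34 and did not pass (permutation test, adjusted p = 0.0536). This pair passed with median-of-ratios scaling (r = 0.37, adjusted p = 0.0234), with the GC and length trend removed (r = 0.52, adjusted p = 0.000714) and with the replicate block (r = 0.37, adjusted p = 0.0187). Mirg with Snhg11, at r = 0.21, passed under 1 of the settings tried, with the GC and length trend removed (r = 0.41, adjusted p = 0.0122). No pair with Malat1 or Neat1 passed in the permutation test as first run. Their own pair, genes next to each other on chromosome 19, gave r = 0.19 (rho = 0.25, permutation p = 0.226 and 0.0837, adjusted p = 0.349). The strongest pair of Malat1 was with Rian, at r = -0.29 (permutation test, adjusted p = 0.0754), and it passed without the rich libraries (r = -0.35, adjusted p = 0.0451). Neat1 with Miat, at r = -0.26, passed with median-of-ratios scaling (r = -0.34, permutation test, adjusted p = 0.0463).

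**Figure D4:**
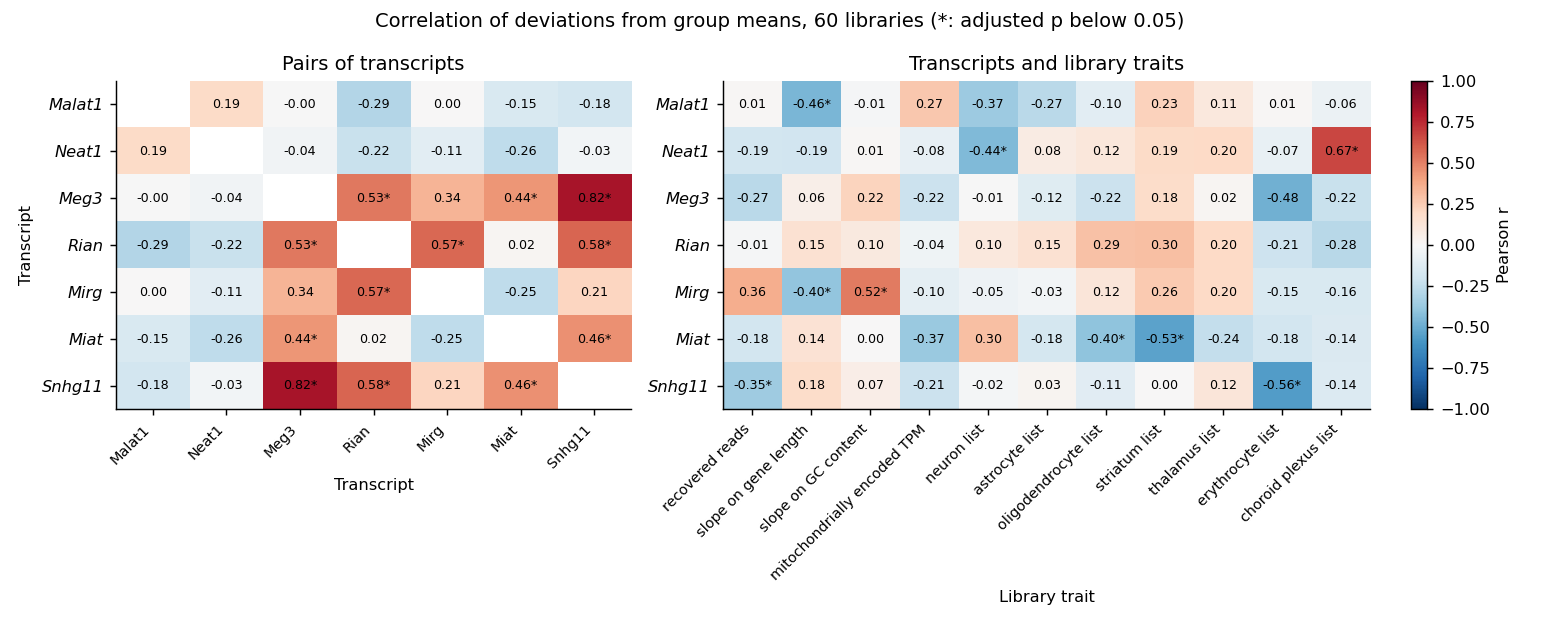
Pearson r of deviations from group means over 60 libraries, for pairs of the 7 measured genes (left) and for each gene with 11 library traits (right), from blue (-1) to red (1), with a star where the adjusted p is below 0.05. Meg3, Snhg11, Rian, Mirg and Miat form the starred pairs, with r from 0.44 to 0.82, and no pair of Malat1 or Neat1 is starred.

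The members differed in the library traits with which they varied. Over 77 pairs of a gene and a trait, tested by the same permutation within groups, Neat1 went with the choroid plexus list at r = 0.67 (rho = 0.67, both p = 1e-05, the smallest possible, adjusted p = 0.00077). Without the 2 libraries farthest out on that list r was again 0.67, and it was 0.73 in CAC, 0.71 in NCAC and 0.45 in Con. Neat1 went against the neuron list (r = -0.44, rho = -0.43, permutation p = 0.00053 and 0.00205, adjusted p = 0.0136). The 5 genes most like Neat1, chosen after their values were seen, were Npc2, Ctnnal1, Ppfibp2, Cpt2 and Pla2g5, with r from 0.76 to 0.77, of which Npc2 is a lysosomal carrier of cholesterol and Cpt2 an enzyme of fatty acid oxidation.

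Malat1 with the neuron list gave r = -0.37 and did not pass (permutation test, adjusted p = 0.0685). Malat1 went against the slope on gene length (r = -0.46, rho = -0.35, permutation p = 0.00366 and 0.0136, adjusted p = 0.0412), and r was -0.31 without the 2 farthest libraries. Mirg went against the same slope (r = -0.40, rho = -0.45, permutation p = 0.0014 and 0.00145, adjusted p = 0.0269, -0.41 without the 2 farthest). It went with the slope on GC content, the mean log2 deviation against the share of G and C (r = 0.52, rho = 0.54, permutation p = 5e-05 and 8e-05, adjusted p = 0.00193, 0.50 without the 2 farthest). Miat went against the oligodendrocyte list (r = -0.40, rho = -0.38, permutation p = 0.00449 and 0.00528, adjusted p = 0.0412, -0.45 without them). It also went against the striatum list (r = -0.53, rho = -0.25, permutation p = 0.00482 and 0.0845, adjusted p = 0.0412), and r was -0.36 without the 2 farthest. Snhg11 went against the erythrocyte list (r = -0.56, rho = -0.34, permutation p = 0.00185 and 0.0293, adjusted p = 0.0285, -0.38 without the 2 farthest), with r = -0.78 in CAC and 0.27 in Con. It also went against the number of recovered reads (r = -0.35, rho = -0.44, permutation p = 0.00462 and 0.00104, adjusted p = 0.0412, -0.45 without them). For Meg3 the erythrocyte list gave r = -0.48 and did not pass (permutation test, adjusted p = 0.0584). The part of these traits in the pairs of transcripts was not tested.

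**Figure D5:**
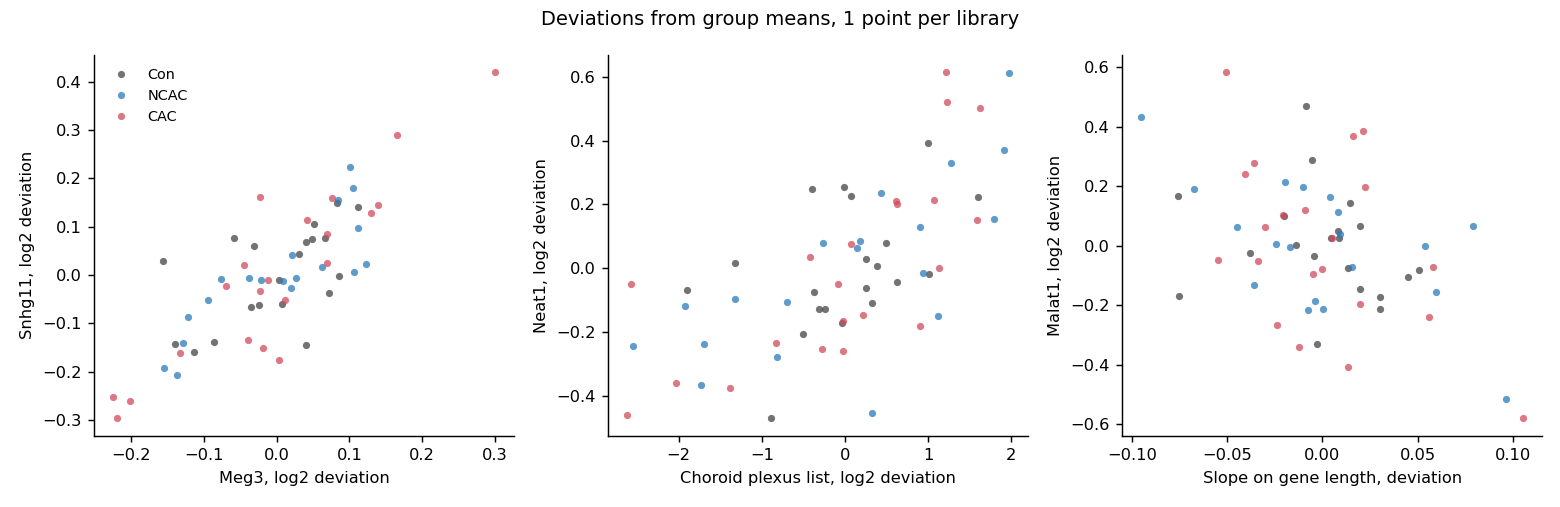
Deviations from group means, with 1 point per library (Con grey, NCAC blue, CAC red): Snhg11 against Meg3 (left) and Neat1 against the choroid plexus list (middle), all as log2, and Malat1 against the slope on gene length (right). The points rise in the first 2 panels (r = 0.82 and 0.67) and fall in the last (r = -0.46, or -0.31 without the 2 libraries farthest out).

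The genes most like each transcript, over the same 60 libraries and with group means removed, were of different kinds. For Malat1 the first was mt-Nd6 (r = 0.72), the subunit of respiratory complex I that is read from the other strand of the mitochondrial genome than most mitochondrial genes. It was followed by mt-Nd3 (r = 0.61), a further subunit of that complex, Alkbh3 (r = 0.60), a demethylase of nucleic acids, and Ndufa4 (r = 0.60), a respiratory chain subunit. With the GC and length trend removed, r was 0.59 for mt-Nd6, 0.33 for mt-Nd3, 0.59 for Alkbh3 and 0.60 for Ndufa4. Malat1 with the summed TPM of mitochondrially encoded genes gave r = 0.27 and did not pass (permutation test, adjusted p = 0.262). For Meg3 the genes after Snhg11 included Dennd6b, Camk1g, a calmodulin-dependent kinase, and Mcoln1, a lysosomal channel, with r from 0.68 to 0.69. For Snhg11 the genes after Meg3 were Cstf2 (r = 0.78), a factor of messenger RNA cleavage, Gli1 (r = 0.78), a target and effector of Hedgehog signalling, Nap1l5 (r = 0.77), an imprinted gene, and Garnl3 (r = 0.76). These are descriptions over libraries that share depth and composition.

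The genes of the bodies that hold Malat1 and Neat1 were not used by the rule and were tested in the same limma fit. Their lists were, however, chosen with earlier results of these data known. In CAC against Con at 8 wk, 5 of 23 nuclear speckle proteins rose, none fell and 18 did not pass. That is 21.7% of the list beside 14.5% of all tested genes, of which 1757 of the 2256 called were higher, and the median was 0.11 beside 0.05 over all genes. Srsf5, a splicing factor, went from 309 ± 8.9 TPM in Con (SD, n = 5) to 373 ± 31.6 TPM in CAC (SD, n = 7), a log2 difference of 0.27 ± 0.05 with adjusted p = 0.00243 in limma. Srrm2, a core protein of speckles, was higher by 0.21 ± 0.06 (adjusted p = 0.0135) and Srsf10 by 0.20 ± 0.07 (adjusted p = 0.0404). With median-of-ratios scaling, 1 of these 5 still passed, and with the trend on GC and length removed 2 did. Among 15 transcripts known for introns that are held in the nucleus, 3 (20%) rose and none fell: Clk1, a kinase of splicing factors, by 0.30 ± 0.10 (adjusted p = 0.03), Ccnl2 by 0.20 ± 0.07 (adjusted p = 0.0418) and Fnbp4 by 0.23 ± 0.08 (adjusted p = 0.0479). With median-of-ratios scaling or the GC and length correction, 0 of these 3 passed in limma. Before, 9 of the 15 had an unadjusted p below 0.05 in limma, beside 4878 of all 15608 genes.

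Of 11 paraspeckle proteins, 1 rose in CAC against Con at 8 wk, 9.09% of the list beside 14.5% of all tested genes. This was Hnrnpk, by 0.15 ± 0.04 (adjusted p = 0.0233 in limma), and it did not pass with median-of-ratios scaling (adjusted p = 0.147). Dazap1 and Hnrnph3 gave -0.25 ± 0.11 and -0.13 ± 0.06 and did not pass. In CAC against NCAC at 8 wk, limma called 0 of the speckle proteins, the paraspeckle proteins and the transcripts with held introns, beside 1.83% of all genes. Of these 2, 0 and 6 had an unadjusted p below 0.05 in limma, beside 2416 of all 15608 genes, and voom also called 0 in each.

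The same lists were tested over time in mice without tumours. From 2 to 8 wk in Con, 9 of 23 speckle proteins (39.1%) fell and none rose, beside 9.67% of all genes called, of which 1248 of 1509 were lower. Their median was -0.16 beside -0.06 over all genes. With median-of-ratios scaling 4 of these 9 passed in limma, and with the GC and length trend removed 0 did. Those with the smallest p were Rbm25, from 87 ± 4.03 to 74.1 ± 3.27 TPM (-0.23 ± 0.06, adjusted p = 0.0107 in limma), Srsf10 (-0.29 ± 0.07) and Prpf4b (-0.25 ± 0.07). Of 15 transcripts with held introns 4 fell: Pnisr (-0.36 ± 0.06, adjusted p = 0.00211 in limma), Ogt (-0.21 ± 0.06), Nktr (-0.21 ± 0.06) and Ddx5 (-0.17 ± 0.06). Of 11 paraspeckle proteins, Tardbp (-0.24 ± 0.05) and Nono (-0.11 ± 0.03) fell and Dazap1 rose (0.37 ± 0.12). The slope on gene length averaged -0.02 in Con at 2 wk and -0.10 at 8 wk, and with the GC and length trend removed 0 of these 16 genes passed in limma. Malat1 itself differed by -0.13 ± 0.15 and Neat1 by 0.01 ± 0.17 over this time.

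Neighbours of the imprinted members were tested in the same fit, where 14.5% of all tested genes passed in CAC against Con at 8 wk. In lists of 5 or 6 genes a count of 0 is near that share. At 8 wk in CAC against Con, limma called 0 of 5 measured genes around the Dlk1-Dio3 domain, with 0 below an unadjusted p of 0.05 and 0 by voom. Dio3, the enzyme that inactivates thyroid hormone, was at 6.07 ± 1.9 TPM in CAC (SD, n = 7) and 8.24 ± 0.907 TPM in Con (SD, n = 5), a difference of -0.45 ± 0.24, Ppp2r5c gave -0.05 ± 0.05 and Begain -0.07 ± 0.11. Of 6 genes in the Kcnq1 domain limma called 0, with 0 unadjusted and 0 by voom; Tssc4 gave 0.06 ± 0.07, Slc22a18 -0.10 ± 0.18 and Cd81 -0.02 ± 0.05. Of 5 genes around Peg13 it called 0, with 1 unadjusted and 0 by voom; Ptk2, the focal adhesion kinase, gave 0.13 ± 0.06, Trappc9 0.10 ± 0.06 and Kcnk9 0.15 ± 0.10. From 2 to 8 wk in Con, Dio3 rose from 4.49 ± 2.29 to 8.24 ± 0.907 TPM (SD, n = 5 each), by 0.92 ± 0.25 (adjusted p = 0.0191 in limma), and Ptk2 fell by 0.24 ± 0.06 on the log2 scale (adjusted p = 0.0127), and neither passed with the GC and length trend removed.

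Among 31 other imprinted genes, 4 rose and 1 fell in CAC against Con at 8 wk, 16.1% of the list and near the 14.5% of all tested genes. Nnat, neuronatin, a small membrane protein of developing neurons, fell from 489 ± 89 TPM in Con to 277 ± 28.5 TPM in CAC, a difference of -0.81 ± 0.18 (adjusted p = 0.0043 in limma). Peg3, a zinc finger protein, rose by 0.39 ± 0.10 (adjusted p = 0.00964) and Copg2, a vesicle coat subunit, by 0.18 ± 0.05 (adjusted p = 0.0205). With median-of-ratios scaling, Nnat and Peg3 still passed and Copg2 did not (adjusted p = 0.0859). From 2 to 8 wk in Con, Nnat rose by 0.64 ± 0.20 and Sgce, a sarcoglycan, fell by 0.20 ± 0.06 on the log2 scale (6.45% of the list beside 9.67% of all genes). With median-of-ratios scaling Nnat passed (adjusted p = 0.0357 in limma) and Sgce did not (adjusted p = 0.0914), and with the GC and length trend removed neither did.

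The other host genes of small nucleolar RNAs did not pass: limma called 0 of 13 in CAC against Con at 8 wk, beside 14.5% of all tested genes. Of these 13, 0 were below an unadjusted p of 0.05 in limma and 0 were called by voom, and their median was -0.14, beside 0.20 ± 0.09 for Snhg11. Snhg6 gave -0.31 ± 0.17, Gas5 -0.22 ± 0.12 and Epb41l4aos -0.66 ± 0.44. Of 20 other long noncoding RNAs, 1 fell and none rose: Pantr1, of cortical neurons, went from 21.6 ± 2.06 TPM in Con to 17 ± 2.36 TPM in CAC, a difference of -0.34 ± 0.11 (adjusted p = 0.0277 in limma) that also passed with median-of-ratios scaling. Mir22hg (0.24 ± 0.09) and Ftx (0.15 ± 0.06) did not pass. From 2 to 8 wk in Con, Ftx (-0.24 ± 0.07), A330008L17Rik (-0.40 ± 0.12), Tug1 (-0.26 ± 0.08) and C130071C03Rik (-0.16 ± 0.05) fell, and 0 of these 4 passed in limma with median-of-ratios scaling, where voom called 1. In CAC against NCAC at 8 wk, limma and voom called 0 in each of these 6 lists, beside 1.83% of all genes in limma. Of the 80 genes 7 had an unadjusted p below 0.05 in limma, beside 2416 of all 15608 genes.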

How the data were processed

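Per the labels' protocols, RNA from Trizol was made into TruSeq stranded mRNA libraries, which select polyadenylated RNA, and read on an Illumina NovaSeq. The authors deposited 1 table of TPM values, scaled by gene length and library total, for 47643 symbols and 60 libraries. Per the submitters' processing notes the build was mm10. Aligner, counting tool and annotation: not given in the sources used here. The sample labels also mention another tumour line, which fits no group.

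Whole reads were recovered for 24227 of 24227 genes above 0 (within 0.02 reads), 32388197 to 42047145 a library (median 36664663), and only for counting error do read numbers set the precision. Gene models are GENCODE M21 (GRCm38), and 70.4% of the recovered lengths equal their exon unions. The 15608 genes that reached 1 TPM in 4 or more libraries were fitted on log2(TPM + 0.5) with limma 3.58.1 (R 4.3.3), 12 group means and an intensity trend, and Benjamini-Hochberg adjustment at 0.05. A log2 difference with the pseudocount of 0.5 understates changes of low genes.

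Deviations from group means were correlated over 60 libraries with 100000 two-sided permutations within groups, for 21 pairs of the 7 measured genes (36 pairs of 9 had been intended, but Kcnq1ot1 and Peg13 are at 0) and 77 pairs of gene and trait. Marker lists enter as the mean log2(TPM + 0.5) of their genes. The fit and the permutation test were tested on simulated data. Alternatives were other pseudocounts, no filter, median-of-ratios scaling, removal of a trend on GC and length (known for 96.5% of genes), no library rich in striatum or erythrocyte genes, a replicate block, voom on recovered reads, only the compared groups, and each library left out.

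Named besides the members were, of each list of related genes, the 3 with the smallest p in CAC against Con at 8 wk, in the other comparisons those past the threshold or, if over 5, the 3 with the smallest p, and the 5 genes most correlated with Malat1, Meg3 and Snhg11, of which some are not reported here. The members and lists were chosen with earlier results of these data known.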

Additional observations from a re-analysis of the deposited data

Results flagged for a closer look

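In 6 of the 84 sets of a gene and a group, 1 library stood apart from the rest of its group, where chance flags about 1 in 20. Malat1 in Con at 6 wk was 494 TPM in replicate 1, against 317 to 339 TPM in the other 4. In the same library Rian was at 247 TPM, against 297 to 312 TPM. Neat1 in Con at 8 wk was 204 TPM in replicate 1, against 138 to 151 TPM. Rian in CAC at 4 wk was 218 TPM in replicate 2, against 287 to 307 TPM. In NCAC at 8 wk Mirg was 6.83 TPM in replicate 3, against 11.1 to 12.3 TPM, and Miat was 414 TPM in replicate 5, against 510 to 546 TPM.

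For Malat1 the difference from Con turned over between 2 and 4 wk, with every library on opposite sides. CAC minus Con at 4 wk exceeded that at 2 wk by 1.26 on the log2 scale, and NCAC minus Con by 1.00. Neither difference was tested, and both rest on the same Con libraries.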

How the results depend on the processing

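The comparisons at 2, 4 and 6 wk were tried under these settings after the data were seen. No value past a threshold changed direction under any setting; values near 0, such as Malat1 at 6 wk (-0.23 to 0.06), changed sign. The log2 differences of single genes moved by less than their spread in 370 of 378 cases, and in all 441 with a library left out. The exceptions include Malat1 in CAC against Con at 4 wk, 0.41 in place of 0.63 without the libraries rich in striatum or erythrocyte genes. In limma, Malat1 passed under 6 of 9 settings at 2 wk and 6 of 9 at 4 wk, and in 3 of 9 and 4 of 10 fits with a library left out. Neat1 at 6 wk passed under 8 of 9 settings and in 5 of 10 such fits. Since the selection used the levels of these genes, such counts describe the fit and are no test of them. The median of the measured members moved only with the GC and length trend removed, to 0.0601 for CAC against Con at 8 wk and 0.13 for Con at 8 against 2 wk. The 6 correlated pairs became 4 to 8.

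Counts over all genes moved more. In CAC against Con at 8 wk, 2256 genes (77.9% higher) became 1409 (48.2% higher) with median-of-ratios scaling and 988 with the replicate block, and 1034 to 3070 with a library left out. The 285 of CAC against NCAC at 8 wk became 1109 without rich libraries, 51 with the replicate block, 83 with only the compared groups, and 72 to 714 with a library left out. For Con at 8 against 2 wk, 1509 (17.3% higher) became 984 (50.9% higher) with median-of-ratios scaling, 57 with GC and length removed, 3166 with only the compared groups, and 173 to 2546 with a library left out.

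In CAC against Con at 2 wk, 577 (46.4% higher; 15.1% of 503 with median-of-ratios scaling) became 298 without a filter, 142 with GC and length removed, 10 without rich libraries, 280 with the replicate block, 294 with voom and 0 with only the compared groups (3226 at an unadjusted p below 0.05), and 2 to 1279 with a library left out. At 4 wk, 125 became 40 without a filter, 213 with median-of-ratios scaling, 0 without rich libraries (1685 unadjusted), 37 with only the compared groups, and 0 to 590 with a library left out, where 0 was reached without CAC replicate 4 (2478 unadjusted) or Con replicate 4 (2237 unadjusted). At 6 wk, 39 became 87 with GC and length removed, 158 without rich libraries and 9 to 85 with a library left out. In no comparison of groups within a time, nor for Con at 8 against 2 wk, did every pair of samples with the same replicate number correlate above 0.1 (r from -0.28 to 0.35), so the block is no pairing. Except where given, the cause was not tested. Mirg had the fewest reads of the measured genes, at 415 to 1108 a library, and the part of counting error in its spread was not tested. No level could be given for genes listed at 0.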
